A study of Schizosaccharomyces pombe with 4 samples.

Results

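The ends of chromosome 2 of fission yeast (Schizosaccharomyces pombe) were examined for bromodeoxyuridine (BrdU), an analogue of thymidine whose incorporation marks newly made DNA. They were taken as the outermost 100 kb on each side in the coordinates of the array, the left end counted from position 0 and the right end from the last probe. Of 41551 probes on the array, 583 lay in these stretches, 275 at the left end and 308 at the right end. All strains held cdc25-22, a heat-sensitive form of the Cdc25 phosphatase needed to enter mitosis, together with a thymidine kinase driven by the nmt1 promoter and a human nucleoside transporter driven by the adh1 promoter, which let yeast take up BrdU. All cultures were held at 37 °C for 4 h and 15 min and then returned to 26 °C with 200 µM BrdU and 10 mM hydroxyurea, a drug that depletes deoxynucleotides. They were collected at 120 min. The 2 wild-type arrays came from cdc25-22 cells and the other 2 from cells labelled cdc25-22 with a deletion of fft3, with 1 array of each genotype in series 1 and in series 2. The antibody-bound DNA carried Cy5 and the input, DNA of the whole-cell extract, carried Cy3. A value is the log2 ratio of Cy5 to Cy3 centred on the median of its array, so that 0 is the median probe, and -1 is 50% of it.

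The ends of a linear chromosome hold the telomeric repeats and, inside them, the subtelomeres, which in fission yeast carry repeated sequence and silent chromatin. Origins of replication there are known to fire late or to stay dormant, a state that depends on the telomere proteins Taz1 and Rif1, and hydroxyurea restricts BrdU uptake to DNA near the origins that fire early. Fft3 is a chromatin remodeller of the SNF2 family, related to budding yeast Fun30, that is known to act at heterochromatin, insulators and subtelomeres in this organism. The comparison asked how the BrdU signal is laid out along each end of chromosome 2, and whether it differed in the arrays labelled as fft3 deletion.

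No gene was placed on these positions, because the file headers name no genome build and the last probe of chromosome 3, at 2453700, lies past the end of the reference given, at 2452883. On chromosome 2 the last probe lies 29304 bp before the end of that reference, so distances below are from the outermost position of the array, not from the telomere. Probes lay a median of 300 bp apart, with gaps of 1200 bp or more at 7 places at the left end and 3 at the right end, the longest being 3300 bp at both. Windows of 2 kb with at least 3 probes on every array numbered 44 of 50 at the left end and 48 of 50 at the right end.

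The median Cy3 signal of the probes of an end was between 14.9 and 254 times the local background on the 4 arrays. In Cy3 no probe of the ends failed the scanner's test of standing above background, and in Cy5 1 spot did. Over the whole array wild-type array 2 stood apart, with an input whose 10th to 90th percentiles spanned 1.14 on the log2 scale, against 2.29 to 2.48 on the others, and with 617 non-uniform spots against 4 to 7. Results are therefore also given without it. The fft3 gene of the reference is 3611 bp long and would span 12 adjacent probes. No run of 12 probes on the chromosomes had an input lower by 1 or more in both series, the lowest value reached in both being -0.28, so the loss of DNA that the label names was not seen and the arrays are called labelled fft3 deletion. Nothing in the labels tells if series 1 and 2 came from different cultures, so the spread between arrays may be technical. The precision is limited by having 2 arrays a group.

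The left end had the lower BrdU signal. Its windows averaged -0.98 on wild-type array 1, -1.44 on wild-type array 2, -0.62 on labelled fft3 deletion array 1 and -0.87 on labelled fft3 deletion array 2. Both labelled arrays lay above both wild-type arrays. The means were -1.21 ± 0.33 in wild type and -0.74 ± 0.18 in the labelled arrays (SD, n = 2 each), a difference of 0.46, with 0.36 in series 1, whose arrays share a slide and a scanner, and 0.57 in series 2, whose arrays share a scanner. The exact permutation test over arrays gave p = 0.33, two-sided, the lowest value this number of arrays can give. The difference of 0.46 was about as large as the gap between the wild-type arrays themselves. The difference was 0.23 without wild-type array 2 and 0.69 without wild-type array 1.

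At the right end the windows averaged -0.57 on wild-type array 1, -1.12 on wild-type array 2, -0.32 on labelled fft3 deletion array 1 and -0.70 on labelled fft3 deletion array 2. Here the groups overlapped, wild-type array 1 lying above labelled fft3 deletion array 2. The means were -0.84 ± 0.39 in wild type and -0.51 ± 0.27 in the labelled arrays (SD, n = 2 each). Their difference of 0.34 was smaller than the gap between the wild-type arrays. The exact permutation test over arrays gave p = 0.67, two-sided. The difference was 0.25 in series 1 and 0.42 in series 2. Without wild-type array 2 it was 0.058, without labelled fft3 deletion array 1 it was 0.14, without labelled fft3 deletion array 2 it was 0.53, and without wild-type array 1 it was 0.61, so its size depended on which arrays were set against each other.

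**Figure D1:**
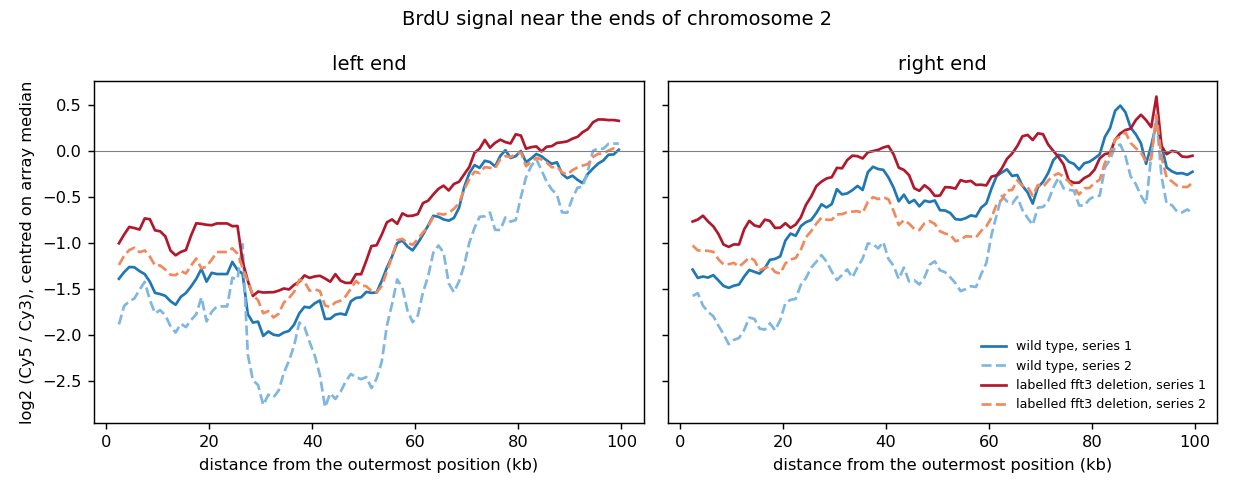
BrdU signal along the left and right end of chromosome 2: the horizontal axis is distance from the outermost array position in kb, the vertical axis the log2 ratio of Cy5 to Cy3 centred on the array median, and each line is the mean of the probes within 2.5 kb on 1 array. The left end stays low to between 50 and 60 kb before it climbs, the right end climbs from about 20 kb, and wild-type array 2 lies lowest over most of both.

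In wild type the signal was not lowest at the outermost probes of the left end but further in. In the outermost 10 kb it was -1.37 on wild-type array 1 and -1.70 on wild-type array 2, against -0.90 and -1.18 on labelled fft3 deletion arrays 1 and 2. From 10 to 20 kb the wild-type arrays gave -1.56 and -1.87 and the labelled arrays -0.997 and -1.29. From 20 to 30 kb, a stretch with 8 probes, the wild-type arrays gave -1.44 and -1.78 and the labelled arrays -0.99 and -1.20. In all 3 of these bins both labelled arrays lay above both wild-type arrays, by a mean of 0.498, 0.57 and 0.51. These differences were 0.33, 0.42 and 0.34 without wild-type array 2, and with normexp background correction those of the first and second bins were 1.04 and 1.08.

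The lowest stretch of the left end lay between 30 and 50 kb. From 30 to 40 kb the wild-type arrays gave -1.88 and -2.26 and the labelled arrays -1.48 and -1.60. From 40 to 50 kb the wild-type arrays gave -1.73 and -2.62 and the labelled arrays -1.40 and -1.58. From 50 to 60 kb the wild-type arrays gave -1.25 and -1.98 and the labelled arrays -0.85 and -1.24. The groups did not overlap in these 3 bins either, although in the last of them wild-type array 1 and labelled fft3 deletion array 2 lay close together. The spread between wild-type arrays reached an SD of 0.63 between 40 and 50 kb (n = 2), where the mean difference of 0.68 was made of 0.33 in series 1 and 1.04 in series 2. The differences of 0.53, 0.68 and 0.57 in these bins were 0.34, 0.24 and 0.20 without wild-type array 2, and without wild-type array 1 those of the last 2 were 1.13 and 0.93. With normexp the difference between 40 and 50 kb was 0.35.

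Towards the interior the left end climbed to the level of the median probe. From 60 to 70 kb the wild-type arrays gave -0.77 and -1.45 and the labelled arrays -0.45 and -0.73. From 70 to 80 kb the wild-type arrays gave -0.093 and -0.73 and the labelled arrays 0.060 and -0.15, and from 80 to 90 kb -0.10 and -0.34 against 0.062 and -0.15. In these last 2 bins labelled fft3 deletion array 2 lay below wild-type array 1, so the groups overlapped. From 90 to 100 kb the wild-type arrays were at -0.21 each and the labelled arrays at 0.26 and -0.087, a difference of 0.30 with 0.47 in series 1 and 0.12 in series 2. Without wild-type array 2 the differences from 60 to 90 kb, which were 0.52, 0.37 and 0.18 over all arrays, were 0.18, 0.049 and 0.060, and without wild-type array 1 they were 0.86, 0.68 and 0.29. Without labelled fft3 deletion array 1 the last of them was 0.070 and that from 90 to 100 kb 0.12, and without labelled fft3 deletion array 2 these were 0.28 and 0.47.

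The place where the left end left its low level was taken from a running mean over 10 kb. The innermost point under -1 lay at 58 kb on wild-type array 1, 71 kb on wild-type array 2, 52 kb on labelled fft3 deletion array 1 and 58 kb on labelled fft3 deletion array 2. The point under -0.5 lay at 67, 79, 63 and 68 kb in the same order. Wild-type array 1 and labelled fft3 deletion array 2 thus left the low level within 1 kb of each other, and wild-type array 2 and labelled fft3 deletion array 1 lay to either side.

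The last probe on the right lies 29304 bp before the end of the reference. Whether the array starts at like distances from both telomeres was not tested. In array coordinates the right end was low over a shorter stretch. In its outermost 10 kb the wild-type arrays gave -1.34 and -1.72 and the labelled arrays -0.83 and -1.10. From 10 to 20 kb the wild-type arrays gave -1.27 and -1.91 and the labelled arrays -0.81 and -1.24. These were the only bins of the right end in which both labelled arrays lay above both wild-type arrays, with a difference of 0.57 in each. The differences were 0.38 and 0.24 without wild-type array 2, 0.76 and 0.89 without wild-type array 1, 0.44 and 0.35 without labelled fft3 deletion array 1, and 1.10 and 0.98 with normexp.

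Beyond 20 kb the right end lay at a middle level. From 20 to 30 kb the wild-type arrays gave -0.77 and -1.38 and the labelled arrays -0.58 and -0.96. From 30 to 40 kb, the highest bin before 60 kb, the wild-type arrays gave -0.31 and -1.15 and the labelled arrays -0.051 and -0.58. From 40 to 50 kb the wild-type arrays gave -0.56 and -1.38 and the labelled arrays -0.28 and -0.80, and from 50 to 60 kb -0.70 and -1.45 against -0.38 and -0.93. In all 4 bins the order of the arrays was the same, with labelled fft3 deletion array 1 highest, then wild-type array 1, labelled fft3 deletion array 2 and wild-type array 2. Without wild-type array 2 the differences, 0.30, 0.42, 0.43 and 0.42 over all arrays, were -0.0023, -0.0026, 0.016 and 0.047. They were 0.12, 0.15, 0.17 and 0.15 without labelled fft3 deletion array 1, 0.49, 0.68, 0.69 and 0.696 without labelled fft3 deletion array 2, and 0.61, 0.84, 0.84 and 0.797 without wild-type array 1.

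Between 60 and 100 kb the right end approached the median probe. From 60 to 70 kb the wild-type arrays gave -0.34 and -0.61 and the labelled arrays -0.0100 and -0.46. From 70 to 80 kb the wild-type arrays gave -0.15 and -0.497 and the labelled arrays -0.18 and -0.37, and from 80 to 90 kb 0.20 and -0.23 against 0.098 and -0.026. The difference of 0.24 between 60 and 70 kb was 0.11 without wild-type array 2 and 0.017 without labelled fft3 deletion array 1. In the next 2 bins the sign of the difference was negative in series 1 and positive in series 2. From 90 to 100 kb, a bin of 19 probes, the wild-type arrays gave -0.19 and -0.56 and the labelled arrays 0.0056 and -0.31, a difference of 0.22 that was 0.034 without wild-type array 2 and 0.064 without labelled fft3 deletion array 1. In the running mean over 10 kb, the innermost point under -1 lay at 20 kb on wild-type array 1, 60 kb on wild-type array 2 and 23 kb on labelled fft3 deletion array 2, and labelled fft3 deletion array 1 had none.

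Over the outermost 100 kb in array coordinates, the left end was lower than the right end on every array. A shift in distance from the telomere between the ends was not tested. The left mean minus the right mean was -0.41 on wild-type array 1, -0.32 on wild-type array 2, -0.30 on labelled fft3 deletion array 1 and -0.17 on labelled fft3 deletion array 2. The gap between the ends was smaller in the labelled arrays by 0.13, with 0.11 in series 1 and 0.15 in series 2 (exact permutation p = 0.33, two-sided, the smallest possible). With normexp background correction this difference between ends was 0.010. On wild-type arrays 1 and 2, 24 and 28 of the 44 left windows lay under -1, and 14 and 21 did so on labelled fft3 deletion arrays 1 and 2. At the right end 10 and 28 of 48 windows lay under -1 on the wild-type arrays, and 1 and 13 on the labelled arrays. Over all windows of the 3 chromosomes the share under -1 was 9.84% and 7.72% on the wild-type arrays and 7.93% and 8.48% on the labelled arrays.

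**Figure D2:**
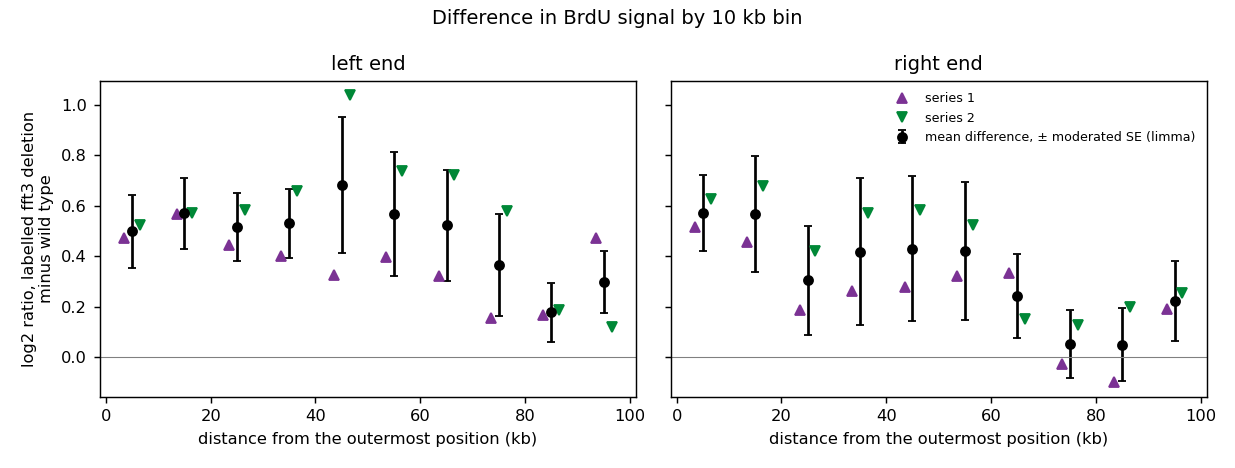
Difference in log2 ratio, labelled fft3 deletion minus wild type, for each 10 kb bin by distance from the outermost position in kb. Black points are the mean of both series with the moderated standard error of limma, and triangles give each series; the left end is above 0 in both series in all 10 bins, the right end in 8.

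Bins were tested in a single fit of limma over the 1256 bins of the 3 chromosomes. None of the 20 bins of the ends passed an adjusted p of 0.05 (lowest adjusted p = 0.913, limma with Benjamini-Hochberg adjustment), as was so for 0% of all bins. At an unadjusted p under 0.05, 5 bins of the left end and 2 of the right end were higher in the labelled arrays and 0 lower, against 1.59% of all bins higher and 0.398% lower. The groups did not overlap, with the labelled arrays higher, in 8 bins of the left end and 2 of the right end, against 11.9% of all bins. In both series 10 left bins and 8 right bins were higher in the labelled arrays, against 26.8% of all bins. The bins of an end are neighbours on the same 4 arrays and are not independent of each other.

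With the scanner as a block, 1 scanner having read each series, 9 bins of the left end and 6 of the right end passed an adjusted p of 0.05, against 2.87% of all bins. At the left end the bins from 0 to 80 kb and from 90 to 100 kb passed, with adjusted p-values (limma) from 6.8e-11 between 40 and 50 kb to 0.0465 between 90 and 100 kb. At the right end the 6 bins from 0 to 60 kb passed, with adjusted p-values (limma) from 9.9e-08 in the outermost 10 kb to 0.0386 between 20 and 30 kb. The block takes out a shift between series that is shared by both genotypes, and leaves 1 residual degree of freedom. It cannot take out a difference between the slides within series 2. The spread was pooled over bins, and the p-values followed the size of the difference, not the agreement between series within a bin. The lowest, between 40 and 50 kb of the left end, came from differences of 0.33 in series 1 and 1.04 in series 2.

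In windows of 2 kb the result was alike. None of the 92 windows passed an adjusted p of 0.05 (lowest adjusted p = 0.877, limma), nor did any of the 6217 windows of the chromosomes (0%). At an unadjusted p under 0.05, 25 left and 12 right windows were higher in the labelled arrays, against 3.49% of all windows, and 0 left and 1 right window were lower, against 1.08%. Both labelled arrays lay above both wild-type arrays in 30 left and 13 right windows, against 15.1% of all, and below them in 1 left and 2 right windows, against 18.9%. In both series 40 left and 38 right windows were higher, against 26.7% of all, and 1 and 3 were lower, against 31.5%. The median difference was 0.48 over the left windows and 0.33 over the right windows, and -0.019 over all windows. With the scanner as a block 24 left and 20 right windows passed with the labelled arrays higher (2.56% of all windows) and 0 with them lower (0.434%). These calls too rested on a spread pooled over windows and followed the size of the difference.

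The windows with the largest differences at the left end lay between 42 and 62 kb. The window 52 to 54 kb from the end (positions 52001 to 54000 of the array design) gave -1.65 and -2.74 on the wild-type arrays and -0.80 and -1.73 on the labelled arrays, a difference of 0.93. That from 42 to 44 kb, which was also the lowest of the end but 1 in wild type, gave -1.76 and -2.97 against -1.36 and -1.68, a difference of 0.84. The window from 60 to 62 kb gave -1.18 and -2.15 against -0.65 and -1.10, a difference of 0.79. The adjusted p was 0.877 for all 3 in limma. After normexp correction the differences of these 3 windows, in the same order, were 0.072, -0.015 and 0.46. Without wild-type array 2 they were 0.39, 0.23 and 0.31, without wild-type array 1 1.48, 1.45 and 1.28, and without labelled fft3 deletion array 1 that at 52 to 54 kb was 0.46, against 1.40 without labelled fft3 deletion array 2. The lowest window in wild type, at 30 to 32 kb, gave -1.98 and -2.85 on the wild-type arrays and -1.63 and -1.76 on the labelled arrays. The only left window lower in the labelled arrays in both series lay at 82 to 84 kb, with a difference of -0.063. It was also among the highest of the end in wild type, at a mean of 0.0089, after that at 98 to 100 kb, at a mean of 0.054.

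At the right end the largest differences lay at 10 to 12 kb (0.67), 2 to 4 kb (0.66) and 52 to 54 kb (0.65) from the end. The first of these gave -1.43 and -2.01 on the wild-type arrays and -0.92 and -1.18 on the labelled arrays, the second -1.502 and -1.76 against -0.78 and -1.17, and the third -0.97 and -1.79 against -0.33 and -1.13. In the first and second windows the groups did not overlap, and in the third they did. The differences were 0.38, 0.53 and 0.24 without wild-type array 2, in the same order, and with normexp 1.35, 1.11 and 0.53. That at 52 to 54 kb was 1.07 without wild-type array 1, 0.25 without labelled fft3 deletion array 1 and 1.05 without labelled fft3 deletion array 2. The most negative difference lay at 84 to 86 kb, the highest window of the end in wild type, which gave 0.61 and 0.39 on the wild-type arrays and -0.041 and 0.29 on the labelled arrays, a difference of -0.37 (adjusted p = 0.877, limma) with -0.65 in series 1 and -0.093 in series 2. The windows at 60 to 62 kb and 74 to 76 kb followed with -0.13 and -0.12. The second highest window in wild type, at 86 to 88 kb, differed by -0.0079. The lowest in wild type lay at 16 to 18 kb and 8 to 10 kb, with means of -1.81 and -1.796 in wild type and -1.199 and -1.18 in the labelled arrays.

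The input was not even along the ends. In the outermost 10 kb of the left end the Cy3 signal, centred on the median of the array, was 1.34 and 1.46 on the wild-type arrays and 1.19 and 1.25 on the labelled arrays on the log2 scale. The outermost 10 kb of the right end gave 1.32 and 1.41 against 1.14 and 1.21. All 4 arrays thus had more input signal there than at the median probe. Further in, between 40 and 50 kb of the left end, the input was -0.98 on wild-type array 1, -1.09 on labelled fft3 deletion array 1 and -0.92 on labelled fft3 deletion array 2, but -0.074 on wild-type array 2. The window from 42 to 44 kb had an input of -2.34, -2.43 and -2.09 on those 3 arrays and -0.62 on wild-type array 2. There the Cy5 signal was -4.00 and -3.58 on wild-type arrays 1 and 2 and -3.69 on each labelled array.

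**Figure D3:**
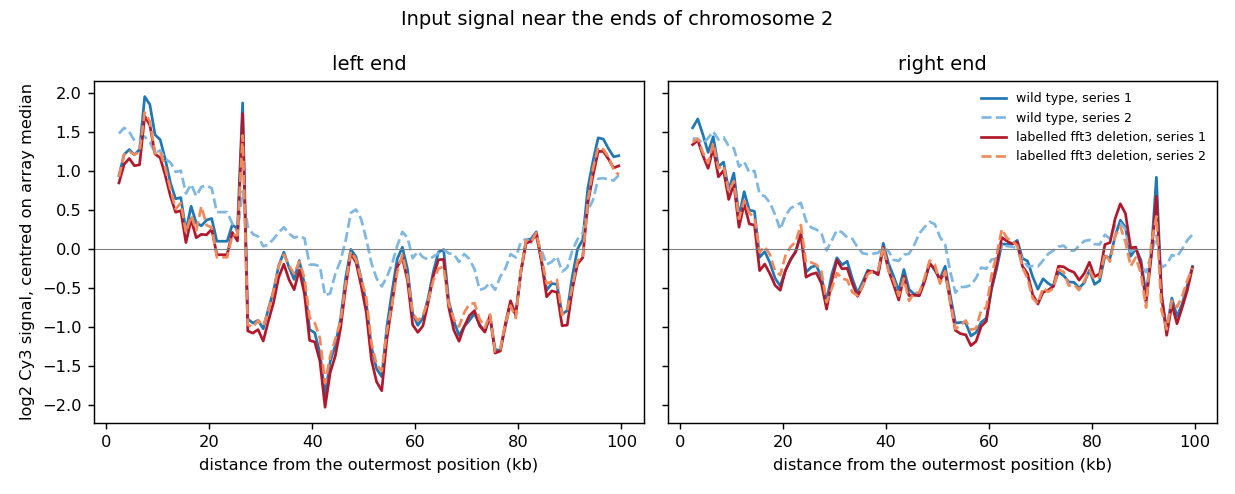
Input signal along the ends of chromosome 2: the horizontal axis is distance from the outermost array position in kb and the vertical axis the log2 Cy3 signal centred on the array median, as the mean of the probes within 2.5 kb on each array. All 4 arrays are above 1 in the outermost 10 kb on average, and wild-type array 2 follows a flatter line than the other 3 arrays.

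Since a lower input raises the ratio, the channels were also set apart. Over the left end the input differed between the labelled and wild-type arrays by -0.11 in series 1 and -0.45 in series 2, and the Cy5 signal by 0.25 and 0.17. Over the right end the input differed by -0.050 and -0.42, and the Cy5 signal by 0.21 and 0.061. The Cy5 difference was 0.21 at the left end and 0.13 at the right end over both series, with no overlap between groups at the left end (exact permutation p = 0.33, two-sided) and overlap at the right end (p = 0.67, exact permutation). Series 2, with the larger difference in ratio, thus had the larger difference in input and the smaller one in Cy5. By window, the Cy5 signal alone was higher in both series in 31 left and 27 right windows, against 30.8% of all windows, and the input lower in both series in 31 left and 30 right windows, against 30.8%. In the outermost 10 kb the Cy5 signal differed by 0.33 and 0.37 in series 1 and 2 at the left end and by 0.35 and 0.49 at the right end, and the input by -0.16 and -0.21 and by -0.18 and -0.19. There both series had similar differences in both channels. Between 40 and 50 kb of the left end the Cy5 signal differed by 0.23 and 0.25, while the input differed by -0.11 and -0.85.

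The outermost stretches held many probes of a kind that was frequent at the ends of all 3 chromosomes and rare in the interior of chromosome 2. Probe names end in no letter or in R, or carry an f or an m besides, which the files do not explain. Names with an f made up 2.60% of all chromosome probes and 1.33% of those in the interior of chromosome 2, against 27.6% at the left end and 16.9% at the right end of chromosome 2, 31.2% at the ends of chromosome 1 and 25.9% at those of chromosome 3. They were 46 of 50 probes in the outermost 30 kb of the left end and 41 of 90 in that of the right end. Further in they were 30 of 225 probes at the left end and 11 of 218 at the right end. The mean input of the f-marked probes was 0.95 at the left end and 0.65 at the right end, and that of probes with no letter or R alone -0.66 and -0.35. In the outermost 30 kb of the right end, where both kinds are present, the 41 f-marked probes gave -1.34 and -1.85 on the wild-type arrays and -0.83 and -1.13 on the labelled arrays, a difference of 0.61. The 42 probes with no letter or R alone gave -0.87 and -1.61 on the wild-type arrays and -0.66 and -1.10 on the labelled arrays, a difference of 0.37. The groups did not overlap over the f-marked probes and did over the others. These kinds lay at different distances, since the outermost 20 kb held 40 of the 41 f-marked probes but 11 of the 42 others. Probe kind and distance from the end cannot be told apart here. Over the whole left end the difference was 0.41 for f-marked probes (0.43 in series 1 and 0.39 in series 2) and 0.502 for those with no letter or R alone (0.32 and 0.68). There too the kinds differed in distance, the outermost 30 kb holding 46 of the 76 f-marked probes and 2 of the 193 others. Whether f-marked probes match several places in the genome was not examined, so they may not report on chromosome 2 alone.

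Few local maxima of BrdU signal, which mark candidate early origins, rose above background at the ends. The ratio was averaged over the 4 arrays and over neighbours up to 500 bp away, and a probe counted as a maximum if none within 5 kb was higher. Over the 3 chromosomes 304 of 936 local maxima (32.5%) passed a height of 0.74, which is 1 background SD over the median, with a median spacing of 15.3 kb. Of the 9 local maxima at the left end 0 passed, and of the 9 at the right end 1 passed. The 5 tallest of the left end lay at 99.9, 78.3, 85.2, 63.0 and 55.5 kb from the end, with smoothed heights of 0.29, 0.26, 0.24, -0.28 and -0.55. At 78.3 kb the probes within 1 kb gave 0.093 and -0.85 on the wild-type arrays and 0.31 and 0.14 on the labelled arrays. At 85.2 kb the wild-type mean was 0.0040 and that of the labelled arrays 0.0048. The first maximum to pass on the left arm lay 274.2 kb from the end, at a height of 0.97.

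The 1 maximum of the right end that passed rested on a single probe, whose name carries an m, which the files do not explain. It lay 91.5 kb from the end (position 4419001), beside the gap of 3300 bp, with a smoothed height of 0.78 and no other probe within 1 kb. That probe gave 0.75 and 0.92 on the wild-type arrays and 0.81 and 0.63 on the labelled arrays, a difference of -0.11 (adjusted p = 0.780, limma over 304 maxima, of which 1.64% passed 0.05). Its input was 2.36 on wild-type array 1, 2.19 and 2.02 on the labelled arrays and 0.91 on wild-type array 2. The other maxima of the right end were at or under 0.066, the tallest lying 71.4, 39.3, 63.6 and 50.1 kb from the end with smoothed heights of 0.066, 0.019, -0.055 and -0.36. That at 39.3 kb lay in the highest bin before 60 kb and gave 0.046 and -0.85 on the wild-type arrays and 0.17 and -0.26 on the labelled arrays. Beyond 100 kb the next maximum to pass on the right arm lay 567.9 kb from the end, at a height of 0.79.

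The profiles of the arrays were alike in shape. Over the 44 windows of the left end the correlation between pairs of arrays ran from 0.91 to 0.98, and over the 48 windows of the right end from 0.75 to 0.95, windows that share probes, input pattern and neighbours. At both ends the lowest correlation was that of labelled fft3 deletion array 1 with wild-type array 2. For the input the lowest correlations, 0.87 at the left end and 0.86 at the right end, were also with wild-type array 2.

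The other parts of the genome were used to place these values. The interior of chromosome 2 averaged -0.12 and -0.098 on the wild-type arrays and -0.095 and -0.12 on the labelled arrays, a difference of 0.0025. The mean of both ends minus that of the interior was -0.64 on wild-type array 1, -1.17 on wild-type array 2, -0.36 on labelled fft3 deletion array 1 and -0.66 on labelled fft3 deletion array 2. The difference of 0.39 (0.28 in series 1, 0.51 in series 2) was not separated from the spread between arrays, since wild-type array 1 lay above labelled fft3 deletion array 2 (exact permutation p = 0.67, two-sided). Without wild-type array 2 it was 0.13, without labelled fft3 deletion array 1 0.25, and without wild-type array 1 0.66.

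Averaged over both ends, chromosome 1, taken as the outermost 100 kb by the same rule, was lower than chromosome 2 on every array. Single ends did not all follow. On wild-type array 2 the left end of chromosome 2, at -1.44, was lower than that of chromosome 1, at -1.19, while on the other arrays it was higher. At each end of chromosome 1 both labelled arrays also lay above both wild-type arrays. The difference was 0.25 at its left end (0.40 in series 1, 0.11 in series 2) and 0.59 at its right end (0.35 and 0.82). The last probe of chromosome 1 lies 4533 bp before the end of the reference, against 29304 bp on chromosome 2. A shift in distance from the telomere between the chromosomes was not tested. The mean of the chromosome 2 ends minus that of the chromosome 1 ends was 0.33 and 0.16 on the wild-type arrays and 0.25 and 0.18 on the labelled arrays. The difference between groups in this contrast was -0.024 (exact permutation p = 1, two-sided), with -0.073 in series 1 and 0.025 in series 2. This was smaller than the SD of the contrast between wild-type arrays, 0.12. The ends of chromosome 3, which border ribosomal DNA, averaged 0.078 in wild type and 0.11 in the labelled arrays.

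**Figure D4:**
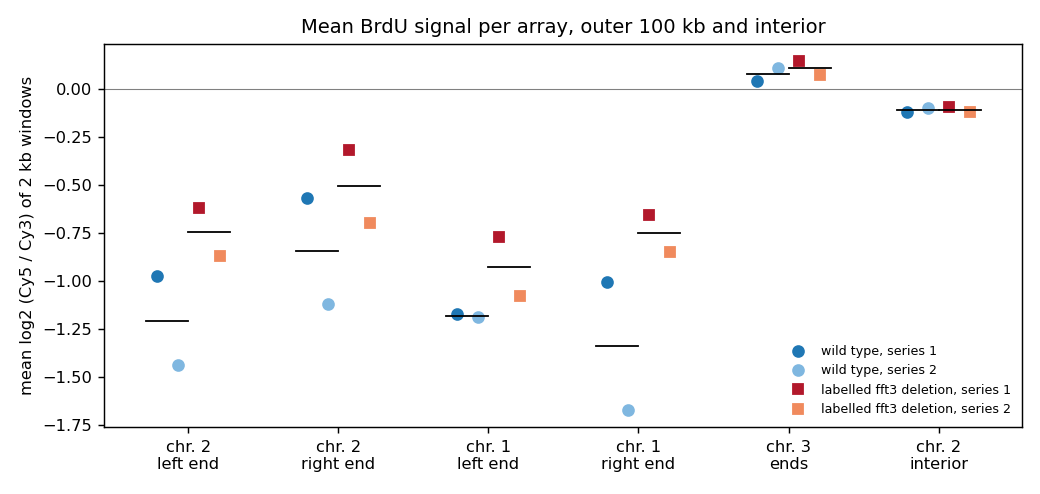
Mean log2 ratio of the 2 kb windows of each region on each array, for the outermost 100 kb of the chromosomes and the interior of chromosome 2. Circles are wild-type arrays, squares the arrays labelled fft3 deletion and bars the group means. The groups are separate at the left end of chromosome 2 and at both ends of chromosome 1, and overlap at the right end of chromosome 2.

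The split of each end at 50 kb was made after its profile was known. Within each end the outer part differed more between groups than the inner part. At the left end the outermost 50 kb gave -1.63 and -2.11 on the wild-type arrays and -1.19 and -1.40 on the labelled arrays, a difference of 0.58, and the next 50 kb -0.48 and -0.92 against -0.18 and -0.47, a difference of 0.38. At the right end the outermost 50 kb differed by 0.46 and the next 50 kb by 0.20. The outer mean minus the inner mean was -1.14 and -1.19 on the wild-type arrays and -1.01 and -0.93 on the labelled arrays at the left end. At the right end it was -0.603 and -0.82 against -0.40 and -0.503. At both ends the drop towards the end was thus smaller on both labelled arrays than on both wild-type arrays, by 0.20 at the left end and 0.26 at the right end (exact permutation p = 0.33 each, two-sided, the smallest possible).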

How the data were processed

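The 4 deposited scanner files hold processed intensity values per channel, background-subtracted and scaled by a linear dye factor per the file headers, which name Agilent Feature Extraction 11.5 (wild-type array 2) and 12.0 and no genome build. The log10 ratio column of the deposited files was used only to check direction, and their flags, of unit other, to drop non-uniform spots (4 to 617 per array). The linear ratio of the deposited series matrix equals processed Cy5 over Cy3 to within 0.013 on the log2 scale. Log2 ratios were centred per array on the median without further normalization and averaged in windows of 2 kb and bins of 10 kb counted from the ends, with at least 3 probes. Windows, bins and local maxima of the 3 chromosomes were tested with limma 3.58.1 in R 4.3.3, two-sided, Benjamini-Hochberg at 0.05, genotype as the only term, and array means with exact permutation tests. Text names every bin, the 3 windows per end with the largest rise and fall of 1 sign in both series, the 2 highest and 2 lowest in wild type, and up to 5 maxima per end. The region, tests and alternatives were chosen with earlier results of these data known; the running means, the split at 50 kb and the probe classes were added later. No sequence or gene is printed, since the array's build is not named. Figures were drawn with matplotlib 3.10.9.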

Additional observations from a re-analysis of the deposited data

How the results depend on the processing

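The higher ratio in the labelled arrays kept its sign at both ends under the 15 alternatives run, from 0.21 (Cy5 signal alone) to 0.69 at the left end and from 0.058 to 0.61 at the right end. Under 14 alternatives so did the contrast of the ends with the interior (0.13 to 0.66) and that of left with right (0.010 to 0.20). Both counts include the block, which cannot change these differences because each series holds 1 array of each genotype. They also include the ratio of the series matrix, which nearly equals the main one. Leaving out 1 array gave -0.11 to 0.060 for the contrast with the chromosome 1 ends, which turned sign without wild-type array 1 and without labelled fft3 deletion array 2 (0.011). A block by series number is the same fit as the block by scanner given above. With it 24 left and 20 right windows and 9 left and 6 right bins passed, against 0 without it. The labels do not say that the number marks a shared culture or day, though same-numbered arrays deviated together (r = 0.36 over all windows). With centring on the mode 1 left bin passed. Leaving out 1 array gave 0 to 13 left windows, 0 to 2 right windows and 0 to 8 bins at each end, all passing calls being without wild-type array 1, whose lone partner is assumed to vary like the other group. For local maxima of the ends 0 passed under every alternative run. Single values turned sign: with normexp the windows at 42 kb left (-0.015, from 0.84), 74 kb right (0.0024) and 86 kb right (0.048), with loess that at 86 kb right (1.9e-05), with the mode that at 98 kb left (-0.014) and the right bins at 70 kb (-0.036) and 80 kb (-0.037), with Cy5 alone the windows at 82 kb left (0.067), 60 kb right (0.046) and 86 kb right (0.25) and the right bins at 70 kb (-0.15) and 90 kb (-0.034). Leaving out 1 array turned the windows at 98 kb left (-0.037 to 0.18) and 86 kb right (-0.25 to 0.23) and the right bins at 20 kb (-0.0023 to 0.61), 30 kb (-0.0026 to 0.84), 70 kb (-0.12 to 0.22) and 80 kb (-0.16 to 0.26). Without wild-type array 1 the windows at 98 kb left and 86 kb right were -0.028 and 0.23, without labelled fft3 deletion array 1 the window at 98 kb left and the right bins at 70 and 80 kb were -0.037, -0.046 and -0.013, and without labelled fft3 deletion array 2 the window at 86 kb right was 0.059. The cause was not tested.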
